A study of Homo sapiens with 15 samples.

Results

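Genes for 10 enzymes that add methyl groups to lysine 36 of histone H3, or remove them, were examined for accessible chromatin in kidney epithelial cells with and without SETD2. The members were taken from a list of names: the writers NSD1, NSD2, NSD3, ASH1L and SMYD2 and the erasers KDM2A, KDM2B, KDM4A, KDM4B and KDM4C. They are 10 of the 20007 protein-coding genes of GENCODE v44 on chromosomes 1 to 22, X and Y. The list holds names only, but it was drawn up with earlier results of these data known. Each was read as a locus, the gene body with 10 kb on either side (hg38). The comparison asked whether loss of SETD2, and its return, went with a change in accessibility at the genes of the related enzymes.

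ATAC-seq, which marks accessible DNA by transposase insertion, was run on RPTEC, human renal proximal tubule epithelial cells immortalised with hTERT. The 15 libraries fall into 5 groups of 3, namely wild-type cells (WT), the SETD2 knockout lines KO1 and KO2, each a single clone made with a CRISPR guide in exon 3, and Rescue1 and Rescue2, single clones of knockout cells that carried lentiviral FLAG-tagged human SETD2 under blasticidin selection. All groups shared hTERT and its G418 selection. Nothing in the labels says that the 3 libraries of a line came from separate cultures, so p-values measure only the spread between these libraries, and clone and SETD2 state cannot be told apart within a line. The labels do not give the knockout clone from which the rescue clones were made, and clone codes in the names of the deposited lists point to KO2 for both. Against KO2 alone, rescue was past an unadjusted exact permutation p of 0.05 at NSD2, NSD3 and KDM4B, but not at NSD1. Under the same rule 24.5% of all genes passed, beside 3 of the 10 members.

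Methylation of lysine 36 marks the bodies of transcribed genes. SETD2 places the trimethyl form during transcription, whereas NSD1, NSD2, NSD3 and ASH1L place the mono- and dimethyl forms over wider domains, and SMYD2 methylates histones and several other proteins. KDM2A and KDM2B bind unmethylated CpG islands and take off the lower forms, and KDM4A, KDM4B and KDM4C take off the trimethyl form, from this lysine and from others.

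The lists held 197527 to 266011 peaks per library. Peaks covered 49.4 to 56.2 Mb in WT, 52.4 to 61.5 Mb in KO and 53.1 to 65.2 Mb in rescue libraries, so that the groups differed in the length called. A rise at a member locus with an unadjusted p under 0.05, with all peaks and flanks, is given below also per megabase under peaks. The lists carry no reads, so read depth was not used here. Promoters of PAX8, PAX2, CDH16, KRT8 and KRT18, markers of kidney epithelium, had a peak in all 15 libraries. Those of HNF4A, CUBN, SLC34A1 and AQP1 had none in any library, and those of PTPRC, PECAM1, UMOD, AQP2 and COL1A1, markers of other cells, had none either. The promoter of CDH1, the epithelial cadherin, had a peak in all 3 WT libraries and in 0 of 12 others, and the part of such differences in cell state in the values below was not tested. The frameshifts of the knockout cannot be checked from peaks.

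Merging peaks that overlapped by 1 bp or more in any of the lists gave 350 regions at the member loci. Of these, 83 had a peak in 1 library and 267 in at least 2 (consensus regions), 94 at writers and 173 at erasers. All 15 libraries had a peak in 93 of the 267 (34.8%), against 35.6% of the 295008 consensus regions of the genome. A region was called gained if every library of one group had a peak and no library of the other did, and lost in the opposite case. By this rule 18 regions changed in one comparison or the other. Sequence from hg38, plus strand, is shown for 1 of these, the stretch around the summit in intron 3 of NSD2. That region lost its peak in every KO library and had it in every rescue library. A region in intron 5 of NSD2 did so too, and its sequence is not shown. Capitals mark a match to the AP-1 string TGANTCA on either strand.
NSD2 intron 3, chr4:1915690-1915890: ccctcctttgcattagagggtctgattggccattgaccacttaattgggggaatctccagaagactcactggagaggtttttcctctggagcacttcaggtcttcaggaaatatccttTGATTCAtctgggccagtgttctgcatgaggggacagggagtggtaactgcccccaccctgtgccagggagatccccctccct

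The window of NSD2 intron 3 held the AP-1 string, in the form TGATTCA. The string allows any base at N, here T, in this window and in all counts below. Matches with C or G at N, such as TGACTCA, were not counted apart from those with A or T. Whether AP-1 binds this stretch was not tested. AP-1 is a dimer of FOS and JUN proteins that binds many enhancers. Over all members, the AP-1 string was present in 4 of 18 gained or lost windows (22.2%), in 24 of 93 windows with a peak in every library (25.8%) and in 30.1% of all consensus windows of the genome. The string GGATCNCTT, found in Alu repeats (no repeat annotation was used) and chosen after these windows had been seen, was in 3 of 18 (16.7%), 2 of 93 (2.15%) and 1.41% of windows, respectively. The other strings were searched on both strands in the same way, with overlaps allowed. The octamer ATGCAAAT was in 0 of the 18 and in 1.41% of all windows, the FOX string TGTTTAC in 1 and 3.61%, the RUNX string TGTGGTT in 2 and 8.39% and the TEAD string GGAATG in 2 and 15.8%. The median GC content was 51.0% in the 18 windows, 53.2% in the 93 and 47.3% in the genome.

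Among the writers, NSD2 had less DNA under peaks in KO than in WT and more in rescue than in KO. Bases under peaks at NSD2 were 3974, 3587 and 3996 in WT, 3006, 3176 and 3426 in KO1, 3407, 2719 and 3323 in KO2, 4504, 4957 and 4064 in Rescue1 and 5013, 5150 and 3936 in Rescue2. Every KO library lay below every WT library and every rescue library. Taken singly, 10.9% of all genes had every KO library below WT and 9.79% had every rescue library above KO. The share of genes with both is not given here. WT averaged 3852 ± 230 (SD, n = 3), whereas KO averaged 3176 ± 274 (SD, n = 6) and rescue averaged 4604 ± 517 (SD, n = 6), a log2 ratio of −0.28 for KO to WT and of 0.54 for rescue to KO. In an exact two-sided permutation of library labels, p was 0.0238 for KO against WT, the smallest value that 84 splits allow, and 0.00216 for rescue against KO, the smallest of 924 splits. Adjusted over all genes, p was 0.103 and 0.0174 by the Benjamini-Hochberg method on these exact tests. Per megabase under peaks the groups were apart in both comparisons too (exact p = 0.0238 and 0.00216). Both comparisons use the same KO libraries.

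**Figure D1:**
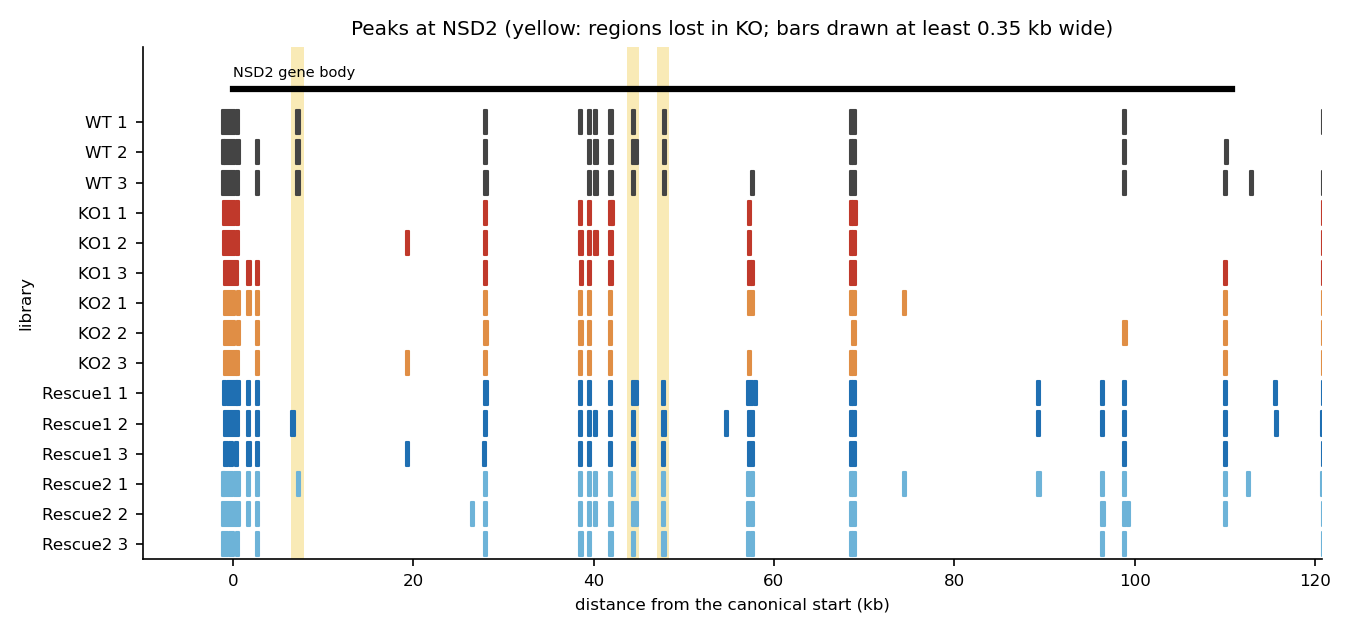
Peaks along NSD2 in each of the 15 libraries, by distance from the canonical start (kb, horizontal), with yellow bands on the 3 regions lost in KO. The bands near +7.2, +44.4 and +47.7 kb are filled in WT and empty in all 6 KO libraries, and the last pair is filled again in all 6 rescue libraries.

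All 3 regions lost at member loci in KO lay in NSD2. The region in intron 3 (chr4:1915614-1915912), whose sequence is given above, had 284, 196 and 226 bases under peaks in WT, 0 in every KO library, 238, 208 and 247 in Rescue1 and 266, 229 and 241 in Rescue2. The region in intron 5 (chr4:1918944-1919222), which overlaps an exon of another transcript, had 181, 163 and 112 bases in WT, 0 in every KO library, 156, 168 and 237 in Rescue1 and 184, 250 and 114 in Rescue2. Both thus had a peak in all WT and rescue libraries. Of all consensus regions, 2.48% were lost in KO and 0.910% were gained in rescue against KO, and the share with both is not given here. The region in intron 1 (chr4:1878446-1878656), had 188, 211 and 164 bases in WT and otherwise a peak in 1 library, with 86 bases in Rescue2 replicate 1. The 3 regions summed to 502 to 653 bases in WT and, by the rule that chose them, to 0 in KO. The 5 regions with a peak in all libraries, the promoter among them, held 2553 to 2938 bases in WT and 2304 to 2736 in KO. The 21 other regions summed to 383 to 636 bases in WT, 292 to 953 in KO and 1034 to 1963 in rescue, so that WT and KO overlapped there and rescue was above both. NSD2 also shares its window with part of NELFA, a subunit of the negative elongation factor.

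NSD3 was lower in KO as well. It had 3151, 3177 and 3240 bases under peaks in WT, 2791, 2665 and 2767 in KO1, 2740, 2547 and 2667 in KO2, 3319, 2774 and 3315 in Rescue1 and 3150, 3457 and 2903 in Rescue2. Every KO library was below every WT library, and 5 of 6 rescue libraries were above every KO library. The difference of KO from WT was −493 bases (log2 ratio −0.24, exact permutation p = 0.0238, adjusted 0.103) and that of rescue from KO was 457 bases (0.23, exact permutation p = 0.00433, adjusted 0.0265, and 0.0598 per megabase under peaks). No region of NSD3 met the rule for gained or lost. The 3 regions with a peak in all libraries held 2384 to 2649 bases in WT and 2272 to 2528 in KO, and 16 other regions 544 to 793 and 159 to 395. The window of NSD3 also contains parts of DDHD2, LETM2 and PLPP5. In the gene body with no flanks, KO differed from WT by −257 bases at NSD3 (exact permutation p = 0.0476). That p is above the smallest possible, 0.0238, so KO and WT libraries overlapped there. Rescue differed from KO by 221 bases on the same scale (exact permutation p = 0.0152). Part of each difference thus lay in the flanks, and the share of the neighbouring genes was not tested.

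ASH1L, whose product is a Trithorax group protein, was higher in both knockout clones. Bases under peaks were 3918, 4016 and 3786 in WT, 4418, 4754 and 5125 in KO1, 4617, 4468 and 5145 in KO2, 5067, 4528 and 4680 in Rescue1 and 4920, 5541 and 4398 in Rescue2. WT lay below every other library, and KO and rescue overlapped. The difference of KO from WT was 848 bases (log2 ratio 0.28, exact permutation p = 0.0238, adjusted 0.103), and rescue differed from KO by 101 bases (exact permutation p = 0.656). Per megabase under peaks every KO library was also above every WT library (exact permutation p = 0.0238, adjusted 0.0611). No region was gained or lost here. The 11 regions with a peak in all libraries held 3680 to 3928 bases in WT and 4064 to 4558 in KO.

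With all peaks and with flanks, NSD1 and SMYD2 did not separate the groups in total bases. NSD1 had 3923 to 4604 bases under peaks in WT, 4332 to 5037 in KO and 4597 to 6189 in rescue (exact permutation p = 0.119 for the knockout and 0.0216 for its rescue, adjusted 0.282 and 0.0746). The unadjusted p for rescue at NSD1 was lost in lists held to their 150000 peaks of highest −log10 q (0.182), without flanks (0.0519), with KO2 alone (0.19) and with Rescue1 alone (0.119, exact permutation), whereas per megabase under peaks every rescue library was above every KO library. SMYD2 had 3842 to 4017 bases in WT, 3970 to 4766 in KO and 4102 to 4901 in rescue (exact permutation p = 0.0714 and 0.301). Without flanks, KO exceeded WT by 452 bases at SMYD2 and by 447.5 at NSD1 (exact permutation p = 0.0238 and 0.0476). At −log10 q of at least 5, NSD1 was higher in KO by 421 bases (exact permutation p = 0.0238). In lists of 150000 peaks each, p for KO against WT was 0.905 at SMYD2 and 0.0714 at NSD1 (exact permutation).

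At both loci single regions did separate the groups. NSD1 gained intron 2 (chr5:177147085-177147531) and intron 5 (chr5:177214247-177214789), each with no peak in WT and a peak in all 12 other libraries. The intron 2 region had 348 to 415 bases under peaks in KO and 104 to 344 in rescue, and the intron 5 region 233 to 347 and 177 to 439. A further one (chr5:177306987-177307339), past the end of NSD1 in an exon of MXD3, a MYC antagonist, had 282 to 353 bases in KO and, in rescue, a peak in 1 Rescue2 library only (81 bases). The MXD3 region thus had a peak in both knockout clones and in little else, and its peaks were weak, at a mean percentile of 22.2 by fold enrichment in their lists. Upstream of NSD1 (chr5:177123908-177124125), a region had no peak in KO, a peak in all 6 rescue libraries (87 to 212 bases) and 78 bases in WT replicate 1. It was the only region at NSD1 gained in rescue against KO. In SMYD2, a region over an exon (chr1:214327564-214327862) had 209, 216 and 153 bases in KO1, 182, 219 and 285 in KO2 and 0 in every WT and rescue library, and was the only region lost in rescue against KO at the 10 loci. Intron 2 of SMYD2 (chr1:214308924-214309434) had 0 bases in WT, 168 to 422 in KO and 159 to 333 in rescue.

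**Figure D2:**
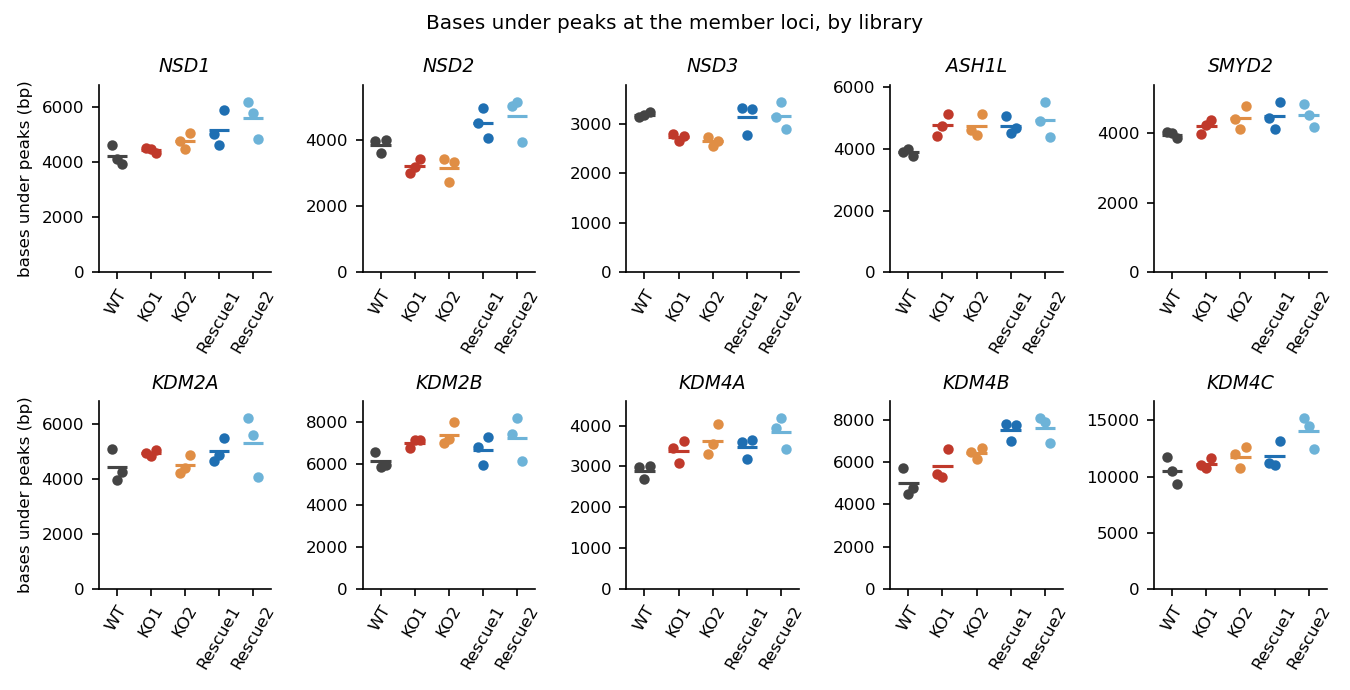
Bases under peaks (vertical, bp, from 0) at each member locus in WT, KO1, KO2, Rescue1 and Rescue2; each point is 1 library and each bar the mean of 3. NSD2 and NSD3 sit lower in all 6 KO libraries than in WT, ASH1L, KDM2B and KDM4A sit higher, and KDM4B is highest in the rescue clones.

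Among the erasers of the lower methyl forms, KDM2B was higher in KO, and KDM2A did not separate the groups. KDM2B had 6563, 5861 and 5934 bases under peaks in WT, 6752, 7135 and 7113 in KO1, 6993, 7190 and 7978 in KO2, 6809, 5942 and 7275 in Rescue1 and 7411, 8186 and 6131 in Rescue2. KO libraries were above WT, with little space between the highest WT and the lowest KO library, and rescue libraries spanned both. The difference of KO from WT was 1074 bases (log2 ratio 0.23, exact permutation p = 0.0238, adjusted 0.103), and it was −7.00 bases when each list was held to its 150000 peaks of highest −log10 q (exact permutation p = 0.929), so the call was lost in lists limited to the stronger peaks, as it was at −log10 q of at least 5 (0.357). Per megabase under peaks every KO library was above every WT library (exact permutation p = 0.0238, adjusted 0.0611). On that scale rescue differed from KO by −9.57 bases, with overlap (exact permutation p = 0.0216, adjusted 0.0701). KDM2A had 3967 to 5085 bases in WT, 4218 to 5028 in KO and 4071 to 6202 in rescue (exact permutation p = 0.405 and 0.229).

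KDM2B gained 2 regions in KO. That in intron 12 (chr12:121486853-121487159) had no peak in WT, 194 to 270 bases in KO and 234 to 307 in rescue. That in intron 4 (chr12:121570515-121570821) had 0 bases in WT, 169 to 261 in KO and a peak in 2 libraries of each rescue clone. KDM2A gained 1 region, downstream of the gene (chr11:67263405-67263615), with 0 bases in WT, 127 to 176 in KO and 163 to 192 in rescue.

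Of the trimethyl erasers, KDM4A had 2988, 2682 and 3002 bases under peaks in WT, 3460, 3090 and 3613 in KO1, 3310, 3544 and 4038 in KO2, 3605, 3189 and 3645 in Rescue1 and 3937, 4185 and 3420 in Rescue2. WT was below all other libraries. The difference of KO from WT was 618 bases (log2 ratio 0.28, exact permutation p = 0.0238, adjusted 0.103), but per megabase under peaks KO and WT overlapped (exact permutation p = 0.0952). The call was also lost at −log10 q of at least 5 (exact permutation p = 0.0714) and in lists of 150000 peaks each (378 bases, exact permutation p = 0.0952). KDM4A gained 1 region in intron 2 (chr1:43653492-43653636), with 93 to 143 bases in KO and a peak in 1 library of each rescue clone. ENSG00000284989 overlaps this intron.

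KDM4B was highest in the rescue clones. It had 5725, 4500 and 4800 bases under peaks in WT, 5452, 5310 and 6640 in KO1, 6473, 6159 and 6669 in KO2, 7822, 6991 and 7781 in Rescue1 and 8097, 7905 and 6896 in Rescue2. Every rescue library was above every KO library, while WT replicate 1 overlapped KO1. Rescue differed from KO by 1465 bases (log2 ratio 0.31, exact permutation p = 0.00216, adjusted 0.0174; apart also per megabase under peaks), and KO from WT by 1109 bases (exact permutation p = 0.0714). With lists of 150000 peaks each, KDM4B was also apart for KO against WT (exact permutation p = 0.0238).

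In intron 1 of KDM4B a region (chr19:4971618-4971765) had a peak in the rescue clones alone, with 119, 124 and 144 bases in Rescue1 and 123, 126 and 126 in Rescue2. A neighbour in the same intron (chr19:4976404-4976789) had no peak in WT, 296 to 356 bases in KO and 280 to 384 in rescue. Intron 2 (chr19:5029731-5029923) had 0 bases in WT, 77 to 171 in KO and a peak in 5 of 6 rescue libraries. KDM4C, the longest member at 455 kb, had 9347 to 11728 bases in WT, 10729 to 12596 in KO and 11055 to 15215 in rescue (exact permutation p = 0.19 and 0.0801). Per megabase under peaks KDM4C was higher in rescue than in KO, with overlap (exact permutation p = 0.0195, adjusted 0.0652). It gained intron 4 (chr9:6833608-6834151), with 0 bases in WT, 220 to 520 in KO and 386 to 521 in rescue, and intron 19 (chr9:7163863-7164171), with 85 to 260 in KO and 114 to 287 in rescue.

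**Figure D3:**
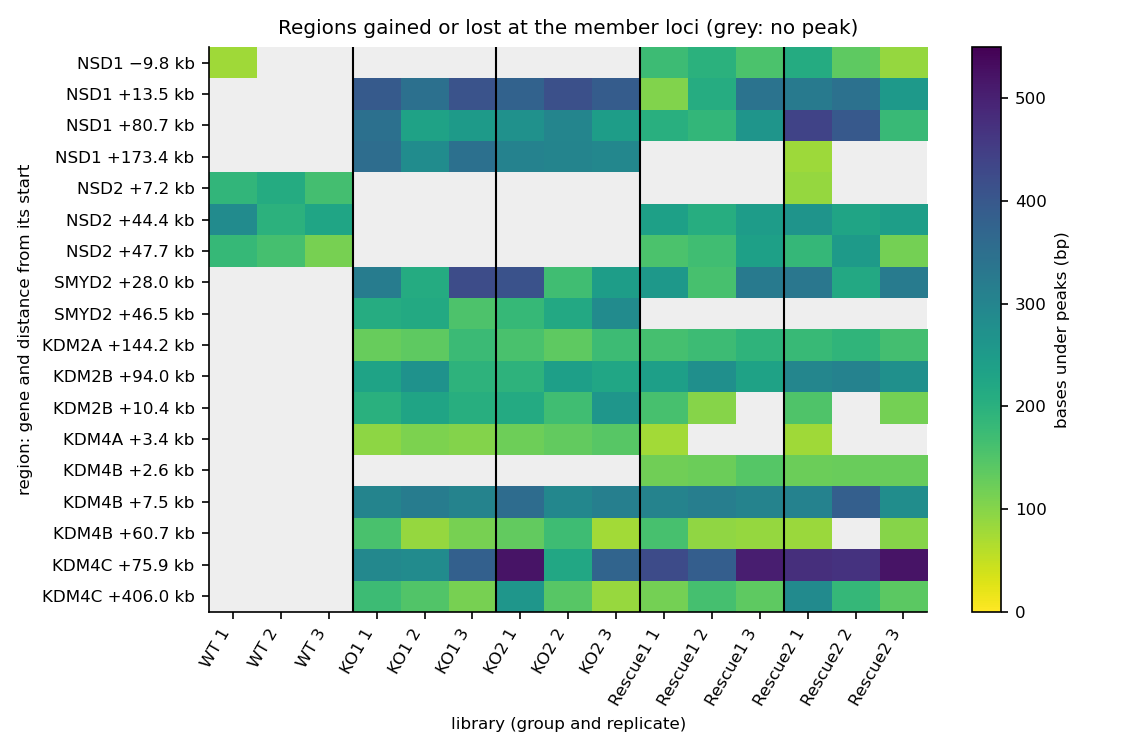
Bases under peaks (colour, bp; grey, no peak) in each of the 15 libraries (columns) for the 18 regions gained or lost, named by gene and distance from its start (rows). The 3 NSD2 rows are filled in WT and empty in KO, and 8 rows are empty in WT and filled in all 12 other libraries.

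Counted together, 13 of 267 consensus regions (4.87%) were gained in KO, beside 4.79% of all consensus regions, and 3 (1.12%) were lost, beside 2.48%. In rescue against KO, 4 (1.5%) were gained and 1 (0.375%) lost, beside 0.910% and 1.24%. The share gained in KO was close to that of the genome, and the other counts were of 4 regions or fewer. A peak in no WT library and in all KO and rescue libraries was seen for 8 regions (3.0%), beside 2.14% of the genome. Of the 18 regions, 14 lay in introns, 1 over an exon, 1 upstream and 2 downstream, and 0 were on a promoter window. Their median width was 303 bp, beside 474 bp for the 93 regions found in every library. Their peaks differed in strength. The mean percentile by fold enrichment, in the lists that held a peak, ran from 10.5 (KDM4B intron 2) to 64.9 (KDM2B intron 12). It was 11.4 at the KDM4B region found in rescue alone, 15.7 at KDM4A intron 2 and 21.9 at the SMYD2 exon, so those were weak peaks.

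For whole loci, 3 of 10 members had every KO library above every WT library, where 12.2% of all genes did, and 2 had every KO library below, where 10.9% did. An unadjusted exact permutation p under 0.05 was reached by 5 of 10 for KO against WT (30.3% of all genes), and by 4 for rescue against KO (37.6%). The 5 loci apart thus fell on both sides. Every rescue library was above every KO library at 2 members (9.79% of genes) and below at 0 (2.67%). After adjustment over all genes, 0 members passed for KO against WT, where the smallest adjusted p of any gene was 0.103, and 3 passed for rescue against KO (NSD2, NSD3 and KDM4B), as did 23.1% of genes. Per megabase under peaks, 2 members were above (10.2% of genes) and 2 below (28.8%) for KO against WT, and 3 were above (10.2%) and 0 below (5.15%) for rescue against KO. This scaling moved the median log2 ratio of all genes by −0.11 for KO to WT, and the share of non-overlapping genes that were higher in KO from 52.8% to 26.1%; for rescue over KO it went from 78.6% to 66.4%. A lower value per megabase, as at NSD2 and NSD3, was therefore common among all genes. In limma on log2(bases + 200), listed as an alternative, the adjusted p was under 0.05 for 6 members in KO against WT (24.2% of genes), namely NSD2 and NSD3 lower and ASH1L, KDM2B, KDM4A and KDM4B higher, and for 4 members in rescue against KO (29.0%), NSD1, NSD2, NSD3 and KDM4B, all higher. The median log2 ratio of the members was 0.12 for KO to WT, against −0.01 for all genes, and 0.15 for rescue to KO, against 0.10. Both lay within the quartiles of all genes, −0.16 and 0.15 for KO to WT and −0.01 and 0.23 for rescue to KO.

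**Figure D4:**
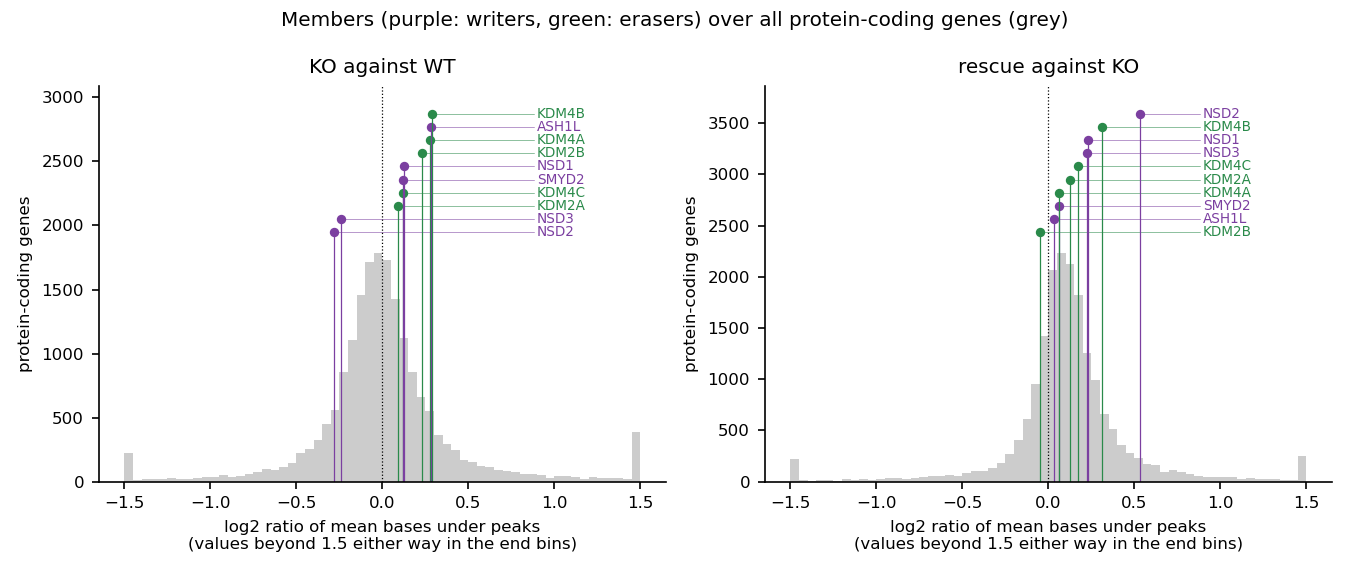
Log2 ratio of mean bases under peaks (horizontal) for KO to WT and rescue to KO, with all protein-coding genes as grey bars (vertical, number of genes) and the 10 members as labelled pins at heights without meaning. NSD2 (−0.28) and NSD3 (−0.24) are the members left of 0 for KO to WT, and NSD2 (0.54) is the member furthest right for rescue to KO.

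The canonical start of all 10 members had a peak in all 15 libraries. To compare regions that never lost their peak, the highest fold enrichment in each of the 104967 regions found in every library was ranked within its library, from percentile 0 to 100. At none of the 10 starts did the KO ranks lie apart from the WT ranks or the rescue ranks from the KO ranks, although their exact permutation p ranged from 0.0476 (KDM2B) to 0.881 (SMYD2) between KO and WT, and from 0.00433 (NSD3) to 0.833 (NSD1) between rescue and KO. For rescue against KO this unadjusted p was also under 0.05 at ASH1L, KDM2A and KDM4B. These starts and that of NSD3 had a lower mean rank in rescue, at KDM4B 37.5 against 48.4 in KO. The starts of NSD1, KDM2B, KDM4A and KDM4C had a higher mean rank in rescue, with larger p. No share of all regions past this p is given here. A second start of KDM2B (chr12:121580224-121580641) ranked lower in all KO libraries (1.61 to 6.83) than in WT (7.23 to 10.1).

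Away from the starts, ranks moved both ways. Of the 93 regions found in every library, 13 (14%) ranked higher in all KO than in all WT libraries, where 10.4% of the genome's regions did, and 15 (16.1%) ranked lower, where 10.6% did. For rescue against KO, 5 (5.38%) ranked higher and 2 (2.15%) lower, beside 3.82% and 3.73%. Writers had 2 higher and 8 lower of 34 in KO, and erasers 11 higher and 7 lower of 59; the difference between writers and erasers was not tested.

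NSD1 had 5 of its 9 constant regions lower in KO. At the region in intron 11 (chr5:177249757-177250097) the percentile was 91.8, 85.7 and 84.7 in WT, 41.2, 31.0 and 38.0 in KO1, 51.6, 28.2 and 39.2 in KO2, 65.5, 57.8 and 73.1 in Rescue1 and 87.0, 87.1 and 80.1 in Rescue2. All KO libraries were below both WT and rescue there. Of the others, 3 were downstream of NSD1, and 1 of those holds the starts of PRELID1 and RAB24. In intron 3 of ASH1L (chr1:155467072-155467307) the mean percentile was 61.3 in WT, 26.6 in KO and 44.8 in rescue, whereas in intron 5 (chr1:155434665-155435173) it was 41.0, 81.0 and 51.1.

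Among the 28 regions whose KO and WT ranks were apart, the widest shifts were in introns of erasers. In intron 18 of KDM4B (chr19:5139175-5139580) the percentile was 4.21, 5.99 and 2.51 in WT, 84.5, 91.2 and 81.8 in KO1, 75.2, 77.8 and 84.4 in KO2, 78.5, 88.3 and 83.0 in Rescue1 and 64.0, 71.8 and 81.3 in Rescue2. It was thus among the lowest regions of WT and among the higher ones of every other line. KDM4C intron 4 (chr9:6842327-6843063) went from a mean of 9.26 in WT to 85.7 in KO and 65.8 in rescue, whereas KDM2A intron 5 (chr11:67198613-67199144) had 9.69 to 20.3 in WT, 44.1 to 79.4 in KO and 53.7 to 83.7 in rescue.

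In the other direction, KDM4C intron 8 (chr9:6909173-6909497) had a mean percentile of 77.4 in WT, 21.0 in KO and 32.6 in rescue. KDM4C intron 18 (chr9:7123625-7124144) had 92.0 in WT, 58.6 in KO and 92.1 in rescue, with the rescue libraries (84.8 to 98.9) above all KO libraries (47.0 to 73.7). Another region of intron 8 (chr9:6902436-6902997), over an exon of another transcript, was 83.4, 62.8 and 40.3, lower in each step. All p-values for ranks apart in KO against WT were the smallest possible, 0.0238 (exact permutation), unadjusted.

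**Figure D5:**
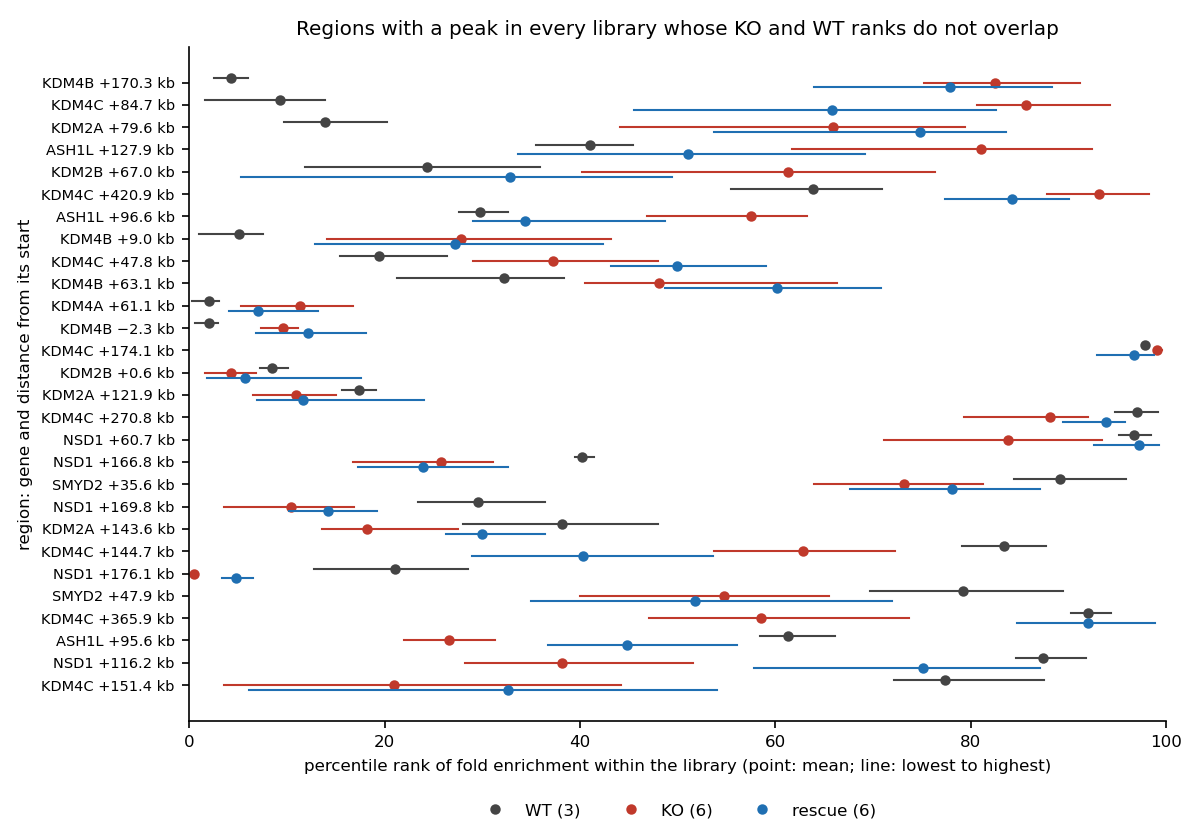
Percentile rank of fold enrichment within a library (horizontal, 0 to 100) for the 28 member regions whose KO and WT ranks did not overlap (vertical, gene and distance from its start); points are means and lines run from the lowest to the highest of 3 WT, 6 KO and 6 rescue libraries. KDM4B at +170.3 kb moves from 4.24 in WT to 82.5 in KO, and NSD1 at +116.2 kb from 87.4 to 38.2.

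Other genes of lysine 36 methylation were read in the same way. Of 7 further writers and erasers (SETD2, SETMAR, PRDM9, KDM4D, KDM4E, KDM8 and RIOX1), 5 had any base under a peak, and PRDM9 and KDM4E had none in any library. In bases, only KDM8 was apart between KO and WT (12.2% of all genes were above), higher by 542 bases (log2 ratio 0.43, exact permutation p = 0.0238, adjusted 0.103), and not per megabase under peaks (exact permutation p = 0.0714), on which scale SETMAR was apart instead, lower in every KO library (exact permutation p = 0.0238). SETD2 itself had a log2 ratio of 0.20 for KO to WT (exact permutation p = 0.0714) and 0.13 for rescue to KO (exact permutation p = 0.214).

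Among 16 genes for proteins that read methylated lysine 36, 2 were lower in every KO library and 0 higher, beside 10.9% and 12.2% of all genes. Per megabase GLYR1 was also lower in every KO library than in WT, as 28.8% of genes were, and higher in every rescue library than in KO, as 10.2% were. The pair lower in bases were MTF2 (log2 ratio −0.58) and PHF1 (−0.19), Tudor proteins that join the PRC2 complex, each with an exact permutation p of 0.0238 and an adjusted p of 0.103. PHF19, their relative, was higher in every rescue library than in KO (0.15, exact permutation p = 0.00216, adjusted 0.0174), and overlapped per megabase under peaks (exact permutation p = 0.104). Of 6 writers and erasers of H3K27 methylation, 0 were apart in bases in either comparison, while per megabase EED, KDM6A and KDM6B were lower in every KO library than in WT and EED was higher in every rescue library, beside the same 28.8% and 10.2% of all genes. EED had an adjusted exact permutation p of 0.0265 for rescue against KO in bases (log2 ratio 0.29). The median log2 ratio of KO to WT was 0.20 for the further lysine 36 enzymes, −0.03 for the readers and −0.07 for the H3K27 enzymes.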

How the data were processed

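ATAC-seq reads were aligned by the authors to hg38 with BWA (0.7.17 in the submitters' processing notes), and MACS2 2.2.7.1 gave 1 peak list per library. The deposited lists give, per peak, its interval, a score, the fold enrichment of the summit as a ratio, −log10 p, −log10 q and the summit; the intervals, the fold enrichment and −log10 q were used. Control tracks, duplicate removal and filtering of problem regions are not given in the sources used here. The study tested reads with DiffBind 2.14.0; that test needs reads, so peak occupancy was compared instead.

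On chromosomes 1 to 22, X and Y, overlapping peaks (1 bp) were merged, and regions with a peak in at least 2 libraries formed the consensus. A region without a peak is below the calling threshold (q-value 0.05), and may still be open. Bases under peaks were summed over each protein-coding gene of GENCODE v44 with 10 kb on either side, so a neighbour's peaks count too. KO is KO1 with KO2 and rescue is Rescue1 with Rescue2. Differences of means were tested by exact two-sided permutation of library labels, doubling the smaller tail, adjusted over 20007 genes by the Benjamini-Hochberg method; the smallest p is 0.0238 (84 splits) for KO against WT and 0.00216 (924 splits) for rescue against KO. Threshold calling and the small number of libraries limit the precision. limma 3.58.1 in R 4.3.3 on log2(bases + 200) was an alternative. NumPy and pandas did the rest. The permutation test, the rule for groups apart and the rule for gained regions were tested on simulated data without differences between clones. Merging and the counting of bases were checked on small made-up lists. All 10 members are described, with each library's value where groups did not overlap, and every gained or lost region is named. The members, gene lists and tests were chosen with earlier results of these data known. No peak lay past a chromosome end of the genome used, and 17 RefSeq promoter windows of 9 members (GRCh38.p14) matched it letter for letter. Some marker genes and sequences are not reported here.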

Additional observations from a re-analysis of the deposited data

Results flagged for a closer look

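Among the KO libraries, KO2 replicate 3 stood apart at KDM2B, with 7978 bases under peaks where the other 5 held 6752 to 7190. Its gap to the nearest library was 0.643 of the range of the 6, above the 95% critical value of Dixon's test. This was 1 of 20 sets of 6 libraries examined (10 loci, KO and rescue), and chance flags about 1 in 20. KO2 replicate 3 also had the most bases under peaks of the KO libraries (61.5 Mb), and the part of this total in the KDM2B value was not tested.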

How the results depend on the processing

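All members but KDM2A and KDM2B kept their direction between KO and WT in all alternatives. Between rescue and KO, NSD1, NSD2, NSD3, KDM2A, KDM4B and KDM4C did so. KO against WT cannot reach p under 0.05 with KO1 alone, with KO2 alone, without a WT library or within replicate numbers, so the loci past it were 0 there (0 to 6 without single libraries), against 5. Loci whose KO and WT groups did not overlap numbered 5 (23.2% of all genes), 4 at −log10 q of at least 5 (22%), in equal lists (25%) and per megabase (39.0%), 7 with KO2 alone (32.6%), and 5 to 8 without single libraries, with 8 without WT replicate 1 (34.2%). Over 15562 genes, deviations of same-numbered libraries correlated at −0.178 to 0.0538, and 0 of 30 pairs exceeded 0.1. Those of differently numbered libraries correlated at −0.124 to 0.161. This gave no sign of pairing by number, but cannot show that a number marks no shared batch. With the replicate block, 4 loci passed for rescue against KO (33.4% of all genes) and 0 for KO against WT. For rescue against KO, 19 constant regions reached the smallest p possible within the block (12.4% of all; exact permutation p = 0.00926). That rule differs from groups apart, which 7 met without the block (7.55% of all), so the counts are not alike.

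The share of all regions of the genome under the same setting stands in parentheses. Regions gained in KO numbered 8 in equal lists of 150000 peaks (4.61%), 22 by the majority rule (6.96%) and 26 with KO2 alone (8.34%), and 13 to 17 without single libraries (4.89% to 5.66%). Regions lost in KO numbered 6 at −log10 q of at least 5 (2.65%), 7 in equal lists (3.82%), 9 by majority (3.85%), 12 with KO1 alone (4.80%), 6 with KO2 alone (3.23%), and 3 to 7 without single libraries (2.58% to 3.47%; 7 without WT replicate 3, 5 without WT replicate 2, 6 without KO2 replicate 2). Regions gained in rescue numbered 7 at the stricter q (1.07%), 14 by majority (3.16%), 11 with KO1 alone (3.10%), 10 with Rescue1 alone (1.80%), 11 with Rescue2 alone (2.44%), and 4 to 6 without single libraries (0.941% to 1.3%). Regions lost in rescue numbered 3 in equal lists (1.55%) and by majority (3.27%), 4 with KO1 alone (2.80%), with Rescue1 alone (2.73%) and with 50% of the region covered (1.14%), 6 with KO2 alone (2.30%), and 1 to 2 without single libraries (1.29% to 1.59%; 2 without KO2 replicate 2 or Rescue2 replicate 1). Constant regions apart in rank numbered 18 in equal lists for KO against WT (19.0%). For rescue against KO they numbered 4 in equal lists (6.55%), 11 when −log10 q set the ranks (8.78%), 22 with KO1 alone (21.9%), 17 with KO2 alone (13.4%), 17 with Rescue1 alone (17.2%), 15 with Rescue2 alone (15.7%), and 7 to 12 without single libraries (8.43% to 10.1%; 11 without KO1 replicate 2 or Rescue1 replicate 3, 12 without KO2 replicate 3).

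Some differences changed sign. In equal lists KDM2B was −7.00 bases for KO against WT, where it was 1074 with all peaks, and ASH1L −49.5 for rescue against KO. Per megabase under peaks, KDM2A was −0.942 for KO against WT and ASH1L −1.58 for rescue against KO. Without flanks, ASH1L was −41.3 and KDM4A −169 for rescue against KO. For the same comparison KDM4A was −29.5 with Rescue1 alone, KDM2B 49.2 with Rescue2 alone, and ASH1L −35.9 without Rescue2 replicate 2 (−35.9 to 193 without single libraries). For rescue against KO2 alone and per megabase, an alternative chosen after seeing the data, ASH1L was −0.213, SMYD2 −0.818 and KDM4A −1.23. The cause was not tested. Depth limits which weak regions are called, and with 3 to 6 libraries a group, a p that misses the threshold does not show that groups were alike.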
